A study of Mus musculus with 8 samples.

Results

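The vascular endothelial growth factor (VEGF), platelet-derived growth factor (PDGF) and angiopoietin genes were followed across the cells of mouse hearts after sham surgery or ischemia–reperfusion (IR). They are 10 of the 27998 genes in the count matrices and were taken by symbol: the ligands Vegfa, Pdgfa, Pdgfb, Angpt1 and Angpt2 and the receptors Flt1, Kdr, Tek, Pdgfra and Pdgfrb. All 10 were found, with 396 UMIs (unique molecular identifiers, each a captured RNA molecule) for Angpt2, the rarest, and 16012 for Pdgfra, the most abundant. Per the methods of the study, left ventricles came from male mice of 10 to 12 weeks on a C57BL/6 background, in which the left coronary artery was tied for 30 min and then released, or which had the same operation without the tie (sham). The labels of these samples name no altered allele and no agent in either group. Hearts of both groups were taken 6 h after surgery, so the label of 0 h is read here as the name of the sham group, and cells of 3 hearts were pooled into a sample. The records list 4 samples per condition, labelled 0 h for sham and 6 h for IR, and the deposited data hold 1 matrix per condition in which cells cannot be traced to a sample. Each condition was therefore 1 library without replicates, no test of sham against IR was possible, and every interval below is a 95% interval that covers counting error only.

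These 3 families build and stabilise blood vessels. VEGF-A, secreted by many cell types and controlled by oxygen, acts on endothelial cells through the receptor tyrosine kinase KDR, while FLT1 binds it tightly and signals weakly. PDGF-B from endothelium recruits pericytes, the mural cells of capillaries, through PDGFRB, whereas PDGF-A signals through PDGFRA, a receptor of fibroblasts. Angiopoietin-1 activates the endothelial receptor TEK and keeps vessels quiet, and angiopoietin-2 competes with it when vessels are remodelled. The members are protein-coding genes of the mouse build GRCm38. Of the receptors, Flt1 lies at chr5:147561604-147726011 and Kdr at chr5:75932827-75978458, both on the minus strand, with Pdgfra nearby on the same chromosome at chr5:75152292-75198215 on the plus strand. Tek lies at chr4:94739289-94874976 on the plus strand. All 5 ligands are on the minus strand, Vegfa at chr17:46016993-46032369, Pdgfa at chr5:138976014-138997370, Pdgfb at chr15:79995874-80014977, Angpt1 at chr15:42424723-42676977 and Angpt2 at chr8:18690263-18741562.

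Flt1, Kdr and Tek are the members with the highest receptor levels in endothelial cells, so the 250 bases before their annotated starts are shown (RefSeq, GRCm38.p6, written 5′ to 3′ on the strand of the gene). Capitals mark GGAA, the core letters bound by ETS factors, or its reverse complement. Flt1 is at chr5:147726012-147726261 (minus strand), Kdr at chr5:75978456-75978705 (minus strand) and Tek at chr4:94739039-94739288 (plus strand).
Flt1: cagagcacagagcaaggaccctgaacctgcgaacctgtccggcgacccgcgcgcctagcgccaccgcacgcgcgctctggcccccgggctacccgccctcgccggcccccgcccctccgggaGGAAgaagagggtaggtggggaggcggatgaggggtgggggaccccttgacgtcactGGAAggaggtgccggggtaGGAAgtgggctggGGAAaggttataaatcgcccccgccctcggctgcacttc
Kdr: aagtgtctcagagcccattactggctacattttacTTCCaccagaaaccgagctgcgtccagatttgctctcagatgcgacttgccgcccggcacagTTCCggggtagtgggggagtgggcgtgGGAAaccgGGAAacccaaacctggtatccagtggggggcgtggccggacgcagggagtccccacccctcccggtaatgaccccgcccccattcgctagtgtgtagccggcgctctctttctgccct
Tek: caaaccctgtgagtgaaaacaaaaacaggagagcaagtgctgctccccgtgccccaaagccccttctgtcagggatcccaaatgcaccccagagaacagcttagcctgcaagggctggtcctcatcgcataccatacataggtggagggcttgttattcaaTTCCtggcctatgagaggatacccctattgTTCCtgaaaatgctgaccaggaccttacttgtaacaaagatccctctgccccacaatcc
The Flt1 stretch held 4 matches, the Kdr stretch 4 and the Tek stretch 2, counting both strands. Of the 32851 such stretches in the reference table, 93.4% held at least 1 match, with a median of 3, and 33.4% held 4 or more. The core is therefore common among promoters, and nothing about a factor is drawn from it. In base composition, G and C made up 70.4% of the Flt1 stretch, 61.6% of that of Kdr and 51.2% of that of Tek, against a median of 52.4% over all stretches. Promoter sequences were matched for 6 of the 10 members in the table used here, in a count that left out Pdgfrb.

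Of 11620 barcodes in the sham matrix and 8539 in the IR matrix, 11377 and 8260 had at least 200 genes and at most 30% mitochondrial UMIs, and 30 barcodes occurred in both. Depth differed between the libraries, with a median of 4599.5 UMIs per barcode in sham and 6244 in IR. Each cell took the class whose markers were detected in the largest share, none of the markers being a member. This classed 10289 sham and 7114 IR cells, and left 986 and 1096 as mixed between classes and 102 and 50 unassigned. The 9 classes with at least 50 cells in each library were compared. They were macrophage/monocyte (3600 sham and 1650 IR cells), neutrophil (269 and 2469), B (1193 and 740), T (409 and 285) and NK cell (237 and 66), fibroblast (3416 and 1554), pericyte (572 and 105), smooth muscle cell (207 and 65) and endothelial cell (266 and 102). Every marker found in the matrices for these classes had UMIs in its own class. The summed marker level of a class was between 3.07 times (macrophage/monocyte against neutrophil, IR) and 96.8 times (neutrophil against pericyte, IR) that of the next highest class. Cells were classed by these same markers, so these values describe the classes and are no independent check of them. When cells were clustered instead, the libraries lay apart in some classes and together in others. The largest fibroblast cluster held 3355 sham and 69 IR cells, and IR fibroblasts lay mostly in clusters of 1050 and 535 cells. In contrast, the endothelial cluster held 419 sham and 133 IR cells, the pericyte cluster 672 and 125, and the smooth muscle cluster 245 and 84. Ratios below therefore compare the same marker class in libraries whose fibroblasts, at least, lay mostly in different clusters.

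Most receptors had 1 class far above the others, while the classes of the ligands lay closer together. Levels are in CPM, the UMIs of a gene summed over a class and divided by all UMIs of that class, times 1000000. Flt1 and Kdr were endothelial, Pdgfra was a fibroblast gene and Pdgfrb a pericyte gene, each at more than 5 times the level of the class after it when both libraries were averaged. Tek was less exclusive, with a mean of 152 CPM in endothelial cells and 48.4 in fibroblasts. Of the ligands, Pdgfb had 218 CPM in endothelial cells and 53.6 in the next class, macrophage/monocyte cells, and Vegfa 78.2 in fibroblasts and 52.7 in NK cells. Between sham and IR, the receptor levels of these classes stayed within 2-fold, while Vegfa in myeloid cells, and Pdgfa and Angpt2 in vessel wall cells, differed by more.

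**Figure D1:**
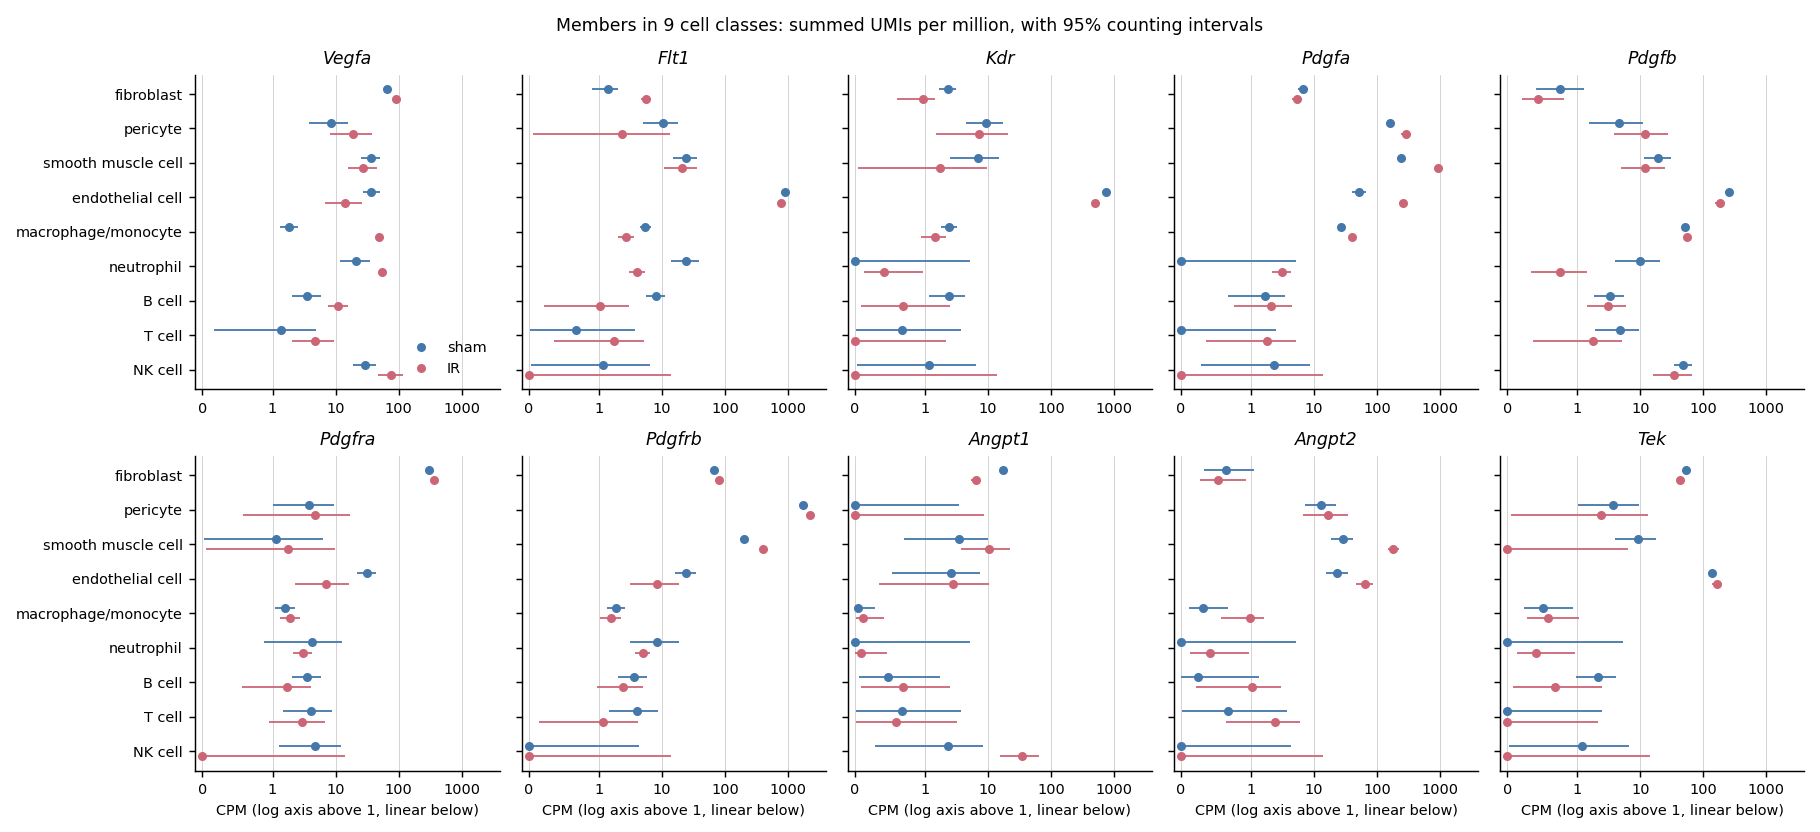
Level of each member in 9 cell classes (CPM, on an axis that is logarithmic above 1 and linear below), with points for the sham and IR libraries and lines for 95% counting intervals. Endothelial Flt1 stood at 901 CPM in sham and 791 in IR and pericyte Pdgfrb at 1714 and 2211, far from all other classes, while the Vegfa points of the 9 classes lay between 1.35 and 90.4 CPM.

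Among the 9 compared classes, Vegfa, the founding VEGF ligand, was highest in fibroblasts in sham. Its level there was 66.0 CPM (62.4 to 69.8, 1231 UMIs), followed by 37.1 in endothelial cells, 36.4 in smooth muscle cells, 29.4 in NK cells and 21.2 in neutrophils. The intervals of those 4 followers overlapped from each to the next, and fibroblasts stood clear of them. T cells (1.35 CPM, 2 UMIs) and macrophage/monocyte cells (1.85 CPM, 36 UMIs) were lowest. Of the smaller classes, 34 sham cardiomyocytes had 76.3 CPM (30.7 to 157) from 7 UMIs, and the 46 of IR had 6.34 from 1 UMI. Mesothelial cells had 25.7 CPM in sham (5 UMIs, 22 cells) and 109 CPM in IR (10 UMIs, 4 cells). In IR the fibroblast level was 90.4 CPM, 1.37-fold that of sham (log2 ratio 0.45, interval 0.35 to 0.56). With the upper limit of 2500 genes per cell that the study used, the log2 ratio was 1.26. That limit removes 14.6% of sham and 87.0% of IR fibroblasts. Most fibroblasts, 2662 of 3416 in sham and 1336 of 1554 in IR, had at least 2 markers of the adventitial list and are called adventitial, a call that deeper cells reach more easily. Those with fewer than 2 had 60.5 CPM in sham and 120 in IR, and adventitial ones 67.1 and 87.4.

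Macrophage/monocyte cells showed the widest gap among pairs of member and class with at least 20 UMIs. Their Vegfa level was 1.85 CPM in sham and 48.5 CPM in IR, 26.2-fold higher (log2 ratio 4.71, interval 4.23 to 5.23), with 831 UMIs in IR. The UMIs were concentrated, in that 190 of 1650 IR cells held all of them and 1 cell held 39. Without that cell and the highest sham cell the log2 ratio was 4.77. At an equal depth of 1000 UMIs drawn from each cell (thinning), a Vegfa UMI was found in 0.170% of the sham and 3.58% of the IR cells, against 0.722% and 11.5% unthinned. T cells, given for comparison, had 0% and 0.353% after thinning and 0.489% and 1.05% before. Their median depths were 3053 and 5390 UMIs, where macrophage/monocyte cells had 4857 and 10369.5.

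The split of these cells by marker genes placed nearly all of the IR signal on one side. The CCR2-side genes (Ccr2, Ly6c2, Chil3, Plac8, Hp, F10, Vcan, Arg1) were taken as markers of blood monocytes and cells derived from them, and not all are specific to these. Cells with more UMIs of this list had 4.32 CPM in sham and 95.02 in IR (log2 ratio 4.46, interval 3.77 to 5.25). Cells on the resident side (Mertk, Cd163, Folr2, Timd4, Lyve1, Cbr2, F13a1, Gas6) had 1.09 and 4.08 CPM (log2 ratio 1.90, interval 0.99 to 2.88). Among CCR2-side cells of the IR library, the 173 with a UMI of Arg1 (arginase 1, itself on the CCR2-side list), had 189 CPM Vegfa (172 to 207), and the 568 without had 56.3 (50.5 to 62.7). The split by Arg1 was chosen after the values were seen, and cells with Arg1 were deeper (median 14220 against 11057.5 UMIs). Cells mixed between macrophage/monocyte and neutrophil, 57 in sham and 646 in IR, had 6.09 CPM in sham and 101 in IR. Classes taken from clusters leave out a cluster of 1120 IR and 42 sham cells with markers of both kinds, and the macrophage/monocyte log2 ratio was then 2.13, from 49 sham and 122 IR UMIs. Summed neutrophil markers in macrophage/monocyte cells were 163 CPM in sham and 833 in IR, with 13 of 13 markers in each. They were 446 and 1149 CPM on the CCR2 side and 91.3 and 525 on the resident side. Their part in the Vegfa gap and in the split was not tested.

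**Figure D2:**
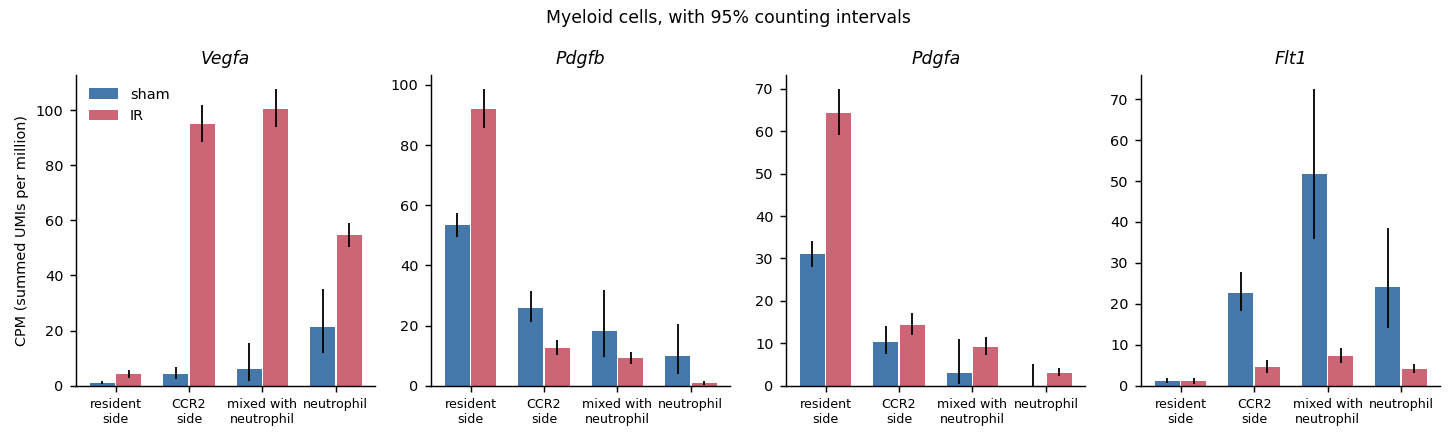
Levels (CPM, bars from 0) of Vegfa, Pdgfb, Pdgfa and Flt1 in resident-side and CCR2-side macrophage/monocyte cells, cells mixed between that class and neutrophil, and neutrophils, with 95% counting intervals as lines, for sham and IR. Vegfa reached 95.02 CPM in CCR2-side and 101 CPM in mixed IR cells against 4.08 on the resident side, while Pdgfb and Pdgfa were highest on the resident side in both libraries.

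Neutrophils had 21.2 CPM Vegfa in sham (15 UMIs, 269 cells) and 54.6 CPM in IR (654 UMIs, 2469 cells), a log2 ratio of 1.36 (0.63 to 2.21). In NK cells the values were 29.4 and 76.1 CPM (25 and 20 UMIs), and in B cells 3.58 and 11.02. Endothelial cells went the other way, with 37.1 CPM in sham and 14.2 in IR (43 and 10 UMIs, log2 ratio -1.38, -2.54 to -0.37). With levels and cell numbers together, fibroblasts held 86.6% of the Vegfa UMIs of classed cells in sham and 56.3% in IR. Macrophage/monocyte cells held 2.53% and 22.8%, and neutrophils 1.06% and 17.97%. The macrophage/monocyte share in IR rested on where the class ends, because its 831 Vegfa UMIs were 297 when the next class could reach only 0.5 of the best score and 122 with classes from clusters, where fibroblasts had 1804 and 2228. These shares also follow how many cells of each class entered the library, and cardiomyocytes, with 34 sham and 46 IR cells, were too few to judge.

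**Figure D3:**
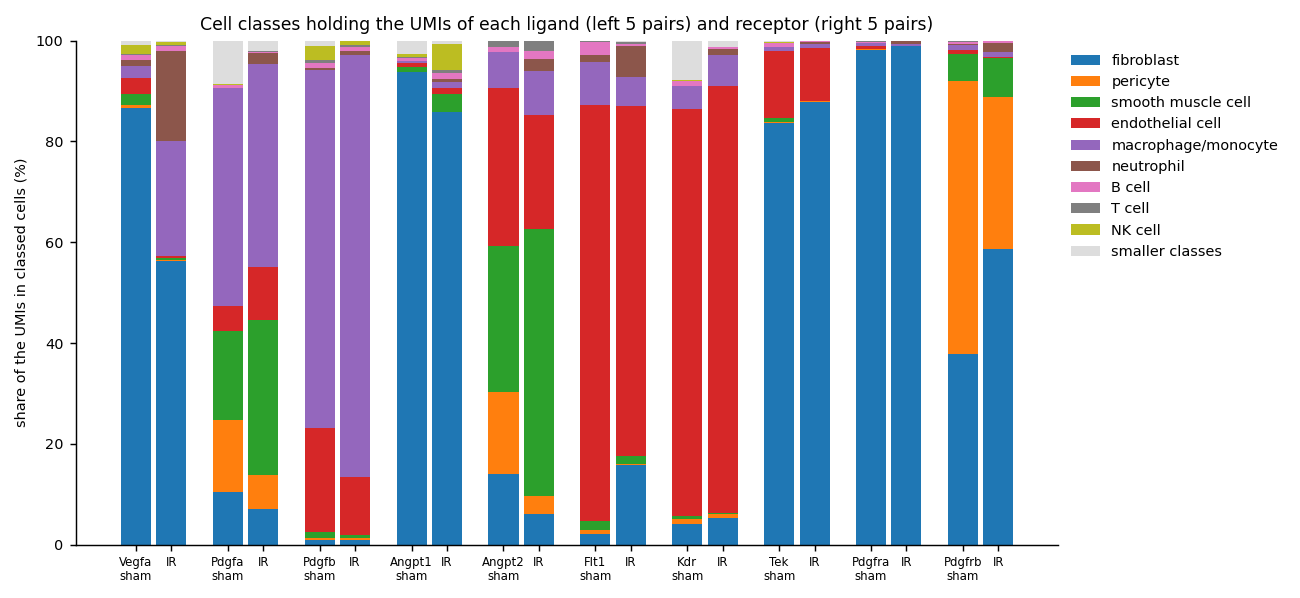
Share of the UMIs of each member in classed cells (%, bars sum to 100) held by each cell class, in sham and IR, with ligands on the left and receptors on the right. Fibroblasts held 86.6% of Vegfa UMIs in sham and 56.3% in IR, macrophage/monocyte cells 71.1% and 83.8% of Pdgfb UMIs, and fibroblasts 83.6% and 87.9% of Tek UMIs.

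Flt1, the high-affinity VEGF receptor, stood at 901 CPM in sham endothelial cells (1045 UMIs) and 791 CPM in IR (557 UMIs). The log2 ratio was -0.19 (-0.34 to -0.04). After thinning, 55.3% of sham and 46.9% of IR endothelial cells had a Flt1 UMI, with overlapping intervals (48.7% to 61.7% and 36.6% to 57.3%), against 79.7% and 74.5% unthinned. T cells had 0% in both libraries after thinning. Kdr, the main signalling receptor for VEGF-A, had 735 CPM in sham (853 UMIs) and 501 CPM in IR (353 UMIs), a log2 ratio of -0.55 (-0.74 to -0.37). Beside these values, the summed endothelial markers of the class were 23264 CPM in sham and 29228 in IR, with 14 of 14 detected in each. Kdr was lower in IR and the sum of the markers used to class these cells was higher, and a link between them was not tested. The size of the Kdr log2 ratio varied, at -0.34 with classes from clusters and -0.35 with the limit of 2500 genes. Next to endothelial cells, the highest Kdr level among compared classes was 9.34 CPM in sham pericytes. Of the smaller classes, 22 mesothelial cells of the sham library, the lining of the heart surface, had 426 CPM (83 UMIs, at most 12 in 1 cell).

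Outside the endothelium Flt1 was scarce and its ratios had opposite signs. CCR2-side cells had 22.6 CPM in sham (89 UMIs in 74 of 559 cells) and 4.54 CPM in IR (38 UMIs), a log2 ratio of -2.32 (-2.90 to -1.75), and resident-side cells 1.23 and 1.05 CPM. No CCR2-side cell of the sham library held more than 3 of these UMIs. Neutrophils had 24.1 and 4.09 CPM (17 and 49 UMIs, log2 ratio -2.56). Fibroblasts showed the reverse, with 1.39 CPM in sham and 5.60 CPM in IR (26 and 127 UMIs, log2 ratio 2.01, 1.39 to 2.68), and 57 of 1554 IR cells held those 127. With the limit of 2500 genes the log2 ratio was 3.11, from 13 and 7 UMIs. Fibroblast Kdr was 2.30 and 0.971 CPM (43 and 22 UMIs, log2 ratio -1.25, -2.06 to -0.47). In the sham B cells 22 of 34 Flt1 UMIs lay in 1 cell, so their log2 ratio of -2.98 was -2.07 (-5.27 to 0.10) without the highest cell of each library. Both receptors also lay in cells left as mixed, with 39.4% of sham and 35.2% of IR Flt1 UMIs and 31.8% and 32.1% of Kdr UMIs, where mixed cells held 15.5% and 20.8% of all UMIs.

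Among the 9 compared classes, Pdgfa was highest in the mural cells of vessels. Smooth muscle cells had 243 CPM in sham (213 UMIs, 207 cells) and 910 CPM in IR (527 UMIs, 65 cells), 3.75-fold higher (log2 ratio 1.91, 1.68 to 2.14). With thinning, 23.7% and 47.5% of these cells had a Pdgfa UMI, against 0% and 0.353% of T cells. Pericytes had 160 and 283 CPM (log2 ratio 0.83, 0.48 to 1.17). Endothelial cells had 51.7 CPM in sham and 257 CPM in IR (log2 ratio 2.31, 1.88 to 2.76), but 39 of the 181 IR UMIs were in 1 cell, and without the highest cell of each library the values were 49.4 and 208 CPM. The endothelial log2 ratio was 1.37 with classes from clusters and 2.89 with the next class at 0.5 of the score or less. All 3 vascular classes were thus higher in IR, and in IR the intervals of pericytes and endothelial cells overlapped. The endothelial markers summed to 664 CPM in sham and 1378 CPM in IR smooth muscle cells, with 14 and 6 of 14 detected, and those of smooth muscle cells to 62841 and 31324 CPM, and in pericytes the endothelial markers summed to 2083 and 3914 CPM, with 13 and 8 of 14 detected. The part of these differences in the Pdgfa ratios was not tested.

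Macrophage/monocyte cells held the largest part of Pdgfa UMIs in both libraries, 43.3% in sham and 40.3% in IR, at levels of 26.8 and 40.5 CPM. Within them the resident side had 31.0 and 64.3 CPM (log2 ratio 1.05, 0.87 to 1.24) and the CCR2 side 10.4 and 14.3. Neutrophils had no Pdgfa UMI in sham, where 3 UMIs would be 4.25 CPM and the exact upper limit was 5.23 CPM, and 3.09 CPM in IR, so no fold can be given. Schwann cells, the glia of cardiac nerves, had 872 CPM in sham (82 UMIs, 44 cells) and 915 CPM in IR (27 UMIs, 7 cells), the level of IR smooth muscle cells.

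Pdgfb, the pericyte-recruiting ligand, was highest per UMI in endothelial cells, with 251 CPM in sham (291 UMIs) and 185 CPM in IR (130 UMIs), a log2 ratio of -0.44 (-0.75 to -0.14). Macrophage/monocyte cells were next, at 51.8 and 55.4 CPM (log2 ratio 0.09, -0.04 to 0.22), and their interval overlapped that of NK cells (48.2 and 34.2 CPM). The near-equal class values hid opposite ratios within. On the resident side Pdgfb was 53.3 CPM in sham and 91.9 in IR (log2 ratio 0.78, 0.64 to 0.93), and on the CCR2 side 25.9 and 12.7 (log2 ratio -1.03, -1.44 to -0.63). Resident-side cells numbered 2603 in sham and 859 in IR, and CCR2-side cells 559 and 741. With classes from clusters the class log2 ratio was 0.75. Platelets store PDGF, and the 9 platelet markers summed to 11.99 CPM in sham and 156 CPM in IR on the resident side (7 and 6 detected), and to 2.03 and 150 CPM on the CCR2 side (3 and 7 detected). The platelet class itself had no Pdgfb UMI in 6 sham and 11 IR cells, with upper limits of 620 and 420 CPM. The part of platelet RNA in the Pdgfb ratios was not tested. Through their numbers, macrophage/monocyte cells held 71.1% of Pdgfb UMIs in sham and 83.8% in IR, and endothelial cells 20.5% and 11.5%.

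Pdgfra, the PDGF-A receptor and a fibroblast gene, had 302 CPM in sham fibroblasts (5639 UMIs) and 369 CPM in IR (8354 UMIs), a log2 ratio of 0.29 (0.24 to 0.34). Fibroblasts held 98.3% and 98.9% of its UMIs. With the limit of 2500 genes the log2 ratio was -0.00, so no direction is stated for it. Adventitial and other fibroblasts had 306 and 285 CPM in sham and 372 and 337 in IR, with overlapping intervals in each library. Pdgfrb, the PDGF-B receptor of mural cells, had 1714 CPM in sham pericytes (1836 UMIs) and 2211 CPM in IR (928 UMIs), a log2 ratio of 0.37 (0.25 to 0.48). After thinning, 82.1% and 80.6% of pericytes had a Pdgfrb UMI, against 0.246% and 0% of T cells. Smooth muscle cells had 204 and 409 CPM (log2 ratio 1.01, 0.72 to 1.29), a value of 0.59 when each cell counted equally. In these cells the pericyte markers summed to 3283 and 4004 CPM. Fibroblasts carried 68.5 and 79.5 CPM, so that by number they held 37.7% of Pdgfrb UMIs in sham and 58.7% in IR, where pericytes held 54.3% and 30.2%. The fibroblast log2 ratio was 0.22, and -0.08 with the limit of 2500 genes. The low endothelial values, 24.1 and 8.52 CPM for Pdgfrb and 31.0 and 7.10 CPM for Pdgfra, went with pericyte markers of 558 and 192 CPM and fibroblast markers of 638 and 504 CPM there, and their part was not tested.

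Angpt1, the TEK agonist, was highest in fibroblasts among the compared classes in sham, with 17.2 CPM (15.3 to 19.1, 320 UMIs) there and no more than 3.42 CPM in any other. Of the smaller classes, the 34 sham cardiomyocytes had 65.4 CPM (23.99 to 142) from 6 UMIs, and the 46 of IR had none, with an upper limit of 23.4 CPM. In IR the fibroblast level was 6.44 CPM (146 UMIs), a log2 ratio of -1.41 (-1.71 to -1.13), and the adventitial and other fibroblasts gave -1.36 each. With the limit of 2500 genes the log2 ratio was -1.74, from 268 and 5 UMIs. NK cells gave the highest mean CPM of both libraries, but from 2 sham and 9 IR UMIs (2.35 and 34.2 CPM), and in IR the NK, smooth muscle and fibroblast intervals overlapped in turn. Angpt2, the context-dependent TEK ligand that endothelial cells store, had its highest level in smooth muscle cells, with 28.5 CPM in sham (25 UMIs) and 181 CPM in IR (105 UMIs). This was 6.37-fold higher (log2 ratio 2.67, 2.03 to 3.36), in 23 of 207 sham and 29 of 65 IR cells. After thinning, 3.09% and 15.3% of smooth muscle cells had an Angpt2 UMI, against 0% and 0.353% of T cells. Without the highest cell of each library the log2 ratio was again 2.67. Endothelial cells had 23.3 and 63.9 CPM (27 and 45 UMIs, log2 ratio 1.46, 0.74 to 2.20), and pericytes 13.1 and 16.7. The endothelial log2 ratio was 2.45 with the limit of 2500 genes and 2.22 with classes from clusters. Macrophage/monocyte cells had 0.309 and 0.992 CPM, from 6 and 17 UMIs, where T cells had 0.673 and 2.35. In sham the 3 vascular classes overlapped from each to the next, and in IR they did not. Angpt1 was thus lower in IR in fibroblasts, its highest compared class in sham, and Angpt2 was higher in smooth muscle and endothelial cells.

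Tek, the angiopoietin receptor, was highest in endothelial cells, at 137 CPM in sham (159 UMIs) and 166 CPM in IR (117 UMIs), a log2 ratio of 0.28 (-0.08 to 0.63). Fibroblasts had 53.4 CPM (996 UMIs) and 43.4 CPM (983 UMIs) and, being many, held 83.6% and 87.9% of Tek UMIs. The fibroblast log2 ratio was -0.30 (-0.43 to -0.17), and 0.00 when each cell counted equally. After thinning, 5.34% and 5.25% of fibroblasts had a Tek UMI (23.7% and 37.3% unthinned), and 0% of T cells in each library. Beside Tek, fibroblasts had few UMIs of the other endothelial receptors. Endothelial cells held 5.36 Kdr UMIs per Tek UMI in sham and 3.02 in IR, whereas fibroblasts held 0.0432 and 0.0224. The 811 sham fibroblasts with a Tek UMI had 7.11 CPM of Pecam1 and Cdh5, the junction proteins of endothelium, and the 2605 without had 7.21, where endothelial cells had 1665. For IR the values were 2.97 and 2.16 CPM, against 2043. The sum of all 14 endothelial markers was higher in fibroblasts with a Tek UMI, 368 against 217 CPM in sham and 664 against 389 CPM in IR. Ly6c1, which fibroblasts also express, made up 86.0% and 79.9% of those UMIs in sham and 32.7% and 24.1% in IR. Without thinning, Pdgfra UMIs were in 78.7% of the sham fibroblasts with Tek and 71.2% of those without, and in 96.0% and 86.0% in IR. Median depths were 5678 UMIs with Tek and 5047 without in sham, and 13363.5 and 13759 in IR. Fibroblasts called adventitial (at least 2 of Pi16, Dpp4, Cd248, Cd55, Sema3c, Fbn1, Opcml, Efhd1) had more Tek than the others. Their levels were 56.9 against 35.7 CPM in sham and 44.5 against 32.1 in IR. The intervals were apart in sham (53.2 to 60.8 and 29.4 to 43.0) and in IR (41.6 to 47.4 and 24.8 to 41.0). This call took in most fibroblasts and depends on depth.

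Over the 9 classes, 49 of the 90 pairs of member and class had at least 20 UMIs in both libraries together. Of those, 12 were counted as at least 2-fold higher in IR and 9 as at least 2-fold lower. The 12 include Pdgfa in neutrophils, which had no sham UMI, so that no fold can be given for it. Each count is given beside the share of all genes with at least 20 UMIs in the class that differed as much. In fibroblasts, 1 of 10 members (Flt1) was higher, where 11.0% of all genes were, and 2 (Kdr and Angpt1) were lower, where 15.9% were. Endothelial cells had 2 of 9 higher (Pdgfa and Angpt2) against 7.75% of genes, and 3 lower (Vegfa, Pdgfra and Pdgfrb) against 9.76%. In smooth muscle cells 3 of 6 were higher (Pdgfa, Pdgfrb and Angpt2) against 10.2%, and 0 lower against 10.0%. Pericytes had 0 of 3 in either direction, against 8.62% higher and 9.63% lower. Macrophage/monocyte cells had 2 of 9 higher (Vegfa and Angpt2) against 8.7%, and 1 lower (Flt1) against 12.1%. In neutrophils 2 of 5 were counted as higher (Vegfa, and Pdgfa with no sham UMI) against 13.9%, and 1 lower (Flt1) against 25.4%. The neutrophil Pdgfa level in IR, 3.09 CPM, lay below the upper limit of 5.23 CPM in sham, so a 2-fold difference is not shown. B cells had 1 of 5 higher (Vegfa) against 4.69%, and 2 lower (Flt1 and Pdgfra) against 5.42%. NK cells had 1 of 2 higher (Vegfa) against 14.8% and 0 lower against 10.1%, and in T cells 0 members reached 20 UMIs, where 6.88% of genes were higher and 3.68% lower. The median log2 ratio of the members counted was -0.29 in fibroblasts (all genes -0.08), -0.44 in endothelial cells (-0.02), 0.40 in smooth muscle cells (0.02), 0.37 in pericytes (-0.01), 0.18 in macrophage/monocyte cells (-0.03) and -0.50 in neutrophils (-0.38). These counts are small, and whether they differ from the shares of all genes was not tested.

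**Figure D4:**
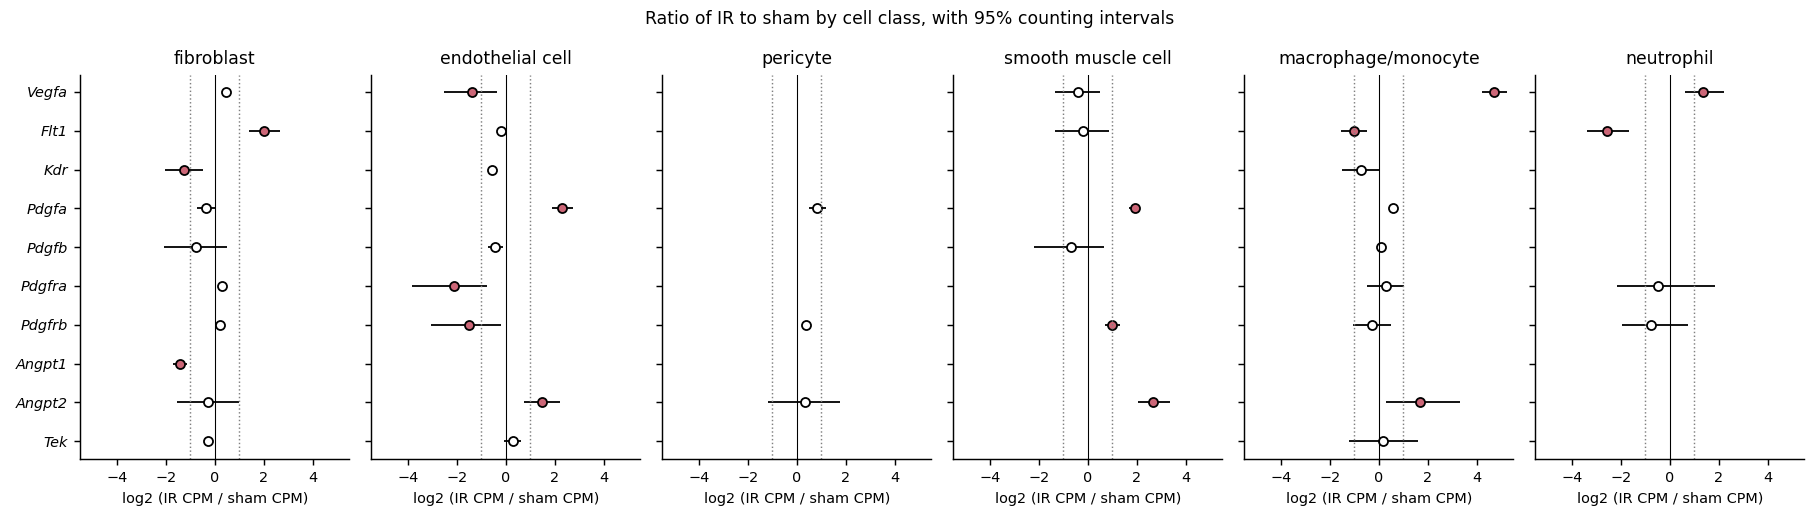
Log2 ratio of the IR to the sham level (CPM) of each member in 6 cell classes, where at least 20 UMIs were counted and neither library was at 0. Lines are 95% counting intervals, dotted lines mark a 2-fold difference and filled points lie past it. Vegfa in macrophage/monocyte cells (4.71) lay farthest from 0, and the receptors in their own classes lay within the dotted lines.

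Of the other genes of the pathways, 20 from the lists were in the matrices. Placental growth factor Pgf, a ligand of FLT1, was higher in IR in the 6 classes with at least 20 UMIs and some in each library. It had 166 CPM in sham fibroblasts and 374 in IR (log2 ratio 1.17, 1.11 to 1.23), 59.5 and 230 in endothelial cells, 79.7 and 230 in smooth muscle cells, 7.47 and 95.3 in pericytes, and 0.772 and 12.5 in macrophage/monocyte cells. B cells, which are not a known source, had 1.67 and 15.2 CPM, a level that the macrophage/monocyte values did not exceed, while CCR2-side cells had 0.254 and 21.6. Neutrophils had no Pgf UMI in sham and 9.77 CPM in IR. Vegfb, a further FLT1 ligand, was lower in IR in fibroblasts (30.1 and 7.81 CPM, log2 ratio -1.95), pericytes (47.6 and 7.15), smooth muscle cells (91.1 and 44.9), endothelial cells (24.1 and 9.94) and macrophage/monocyte cells (17.0 and 6.53). The lymphatic ligand Vegfc was 18.5 and 34.5 CPM in fibroblasts (log2 ratio 0.90) and 88.8 and 45.4 CPM in endothelial cells (-0.97). Pdgfd in smooth muscle cells was 27.3 and 6.91 CPM, from 24 and 4 UMIs. Over the 9 classes, 22 pairs of other ligand and class could be counted, with 7 higher and 6 lower by 2-fold. Among all genes, the share that was higher ran from 4.69% to 14.8% over the classes and the share that was lower from 3.68% to 25.4%. All of the higher pairs were Pgf, that of neutrophils without a sham UMI, and the lower ones were Vegfb in the 5 classes named and Pdgfd.

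Of the other receptors and co-receptors, 20 pairs could be counted, with 2 higher and 2 lower, near the shares of all genes just given. The lower pairs were Nrp1 in neutrophils (14.2 and 5.68 CPM) and Tie1 in fibroblasts (18 and 2 UMIs). Nrp2, a neuropilin that binds VEGFs, was the gene in both higher pairs, with 143 and 297 CPM in endothelial cells (log2 ratio 1.05, 0.75 to 1.36) and 22.9 and 69.3 in macrophage/monocyte cells (1.59, 1.44 to 1.75), on both the resident (1.85) and CCR2 side (2.18). Nrp1, its relative, was 994 and 689 CPM in endothelial cells (-0.53) and lower on the CCR2 side (93.9 and 35.0 CPM, log2 ratio -1.43). Tie1, the orphan partner of TEK, was 262 and 251 CPM in endothelial cells, Ptprb, the phosphatase that silences TEK, 651 and 518, and the lymphatic receptor Flt4 74.1 and 80.9. Among genes known to answer VEGF in endothelium, Apln, the apelin peptide of growing vessels, was 8.62 and 56.8 CPM in endothelial cells (10 and 40 UMIs, log2 ratio 2.72, 1.70 to 3.89), and Nid2, a basement membrane protein, 13.8 and 39.8 (1.53). The tip-cell Notch ligand Dll4 was 93.1 and 86.6 CPM, and Rcan1, an inhibitor of calcineurin, 56.9 and 75.3. In all, 28 pairs of these genes and classes could be counted, with 7 higher, such as Adamts1 in pericytes (181 and 548 CPM) and macrophage/monocyte cells (3.09 and 12.4), and 2 lower, against the same shares of all genes (4.69% to 14.8% higher and 3.68% to 25.4% lower). The lower ones were Rcan1 in smooth muscle cells (79.7 and 15.5 CPM) and the chemokine receptor Cxcr4 in neutrophils (996 and 424 CPM).

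**Figure D5:**
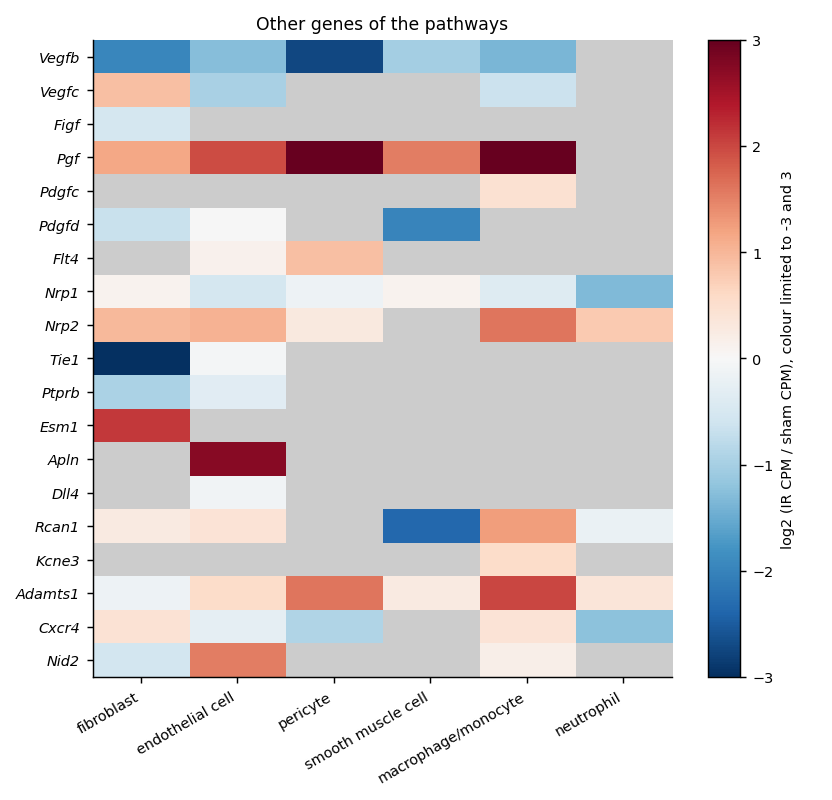
Log2 ratio of the IR to the sham level (CPM) for other genes of the pathways in 6 classes, red where higher and blue where lower in IR, with colours limited to -3 and 3. Grey marks pairs with under 20 UMIs or with a library at 0. Pgf is red in all 5 classes with a ratio and Vegfb blue in all 5.

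Across the 18 sums of class and library, the genes whose pattern was most like that of each member are given as a description, since the points share their libraries and depth. Kdr was closest to Nova2 (Pearson r 0.994), Flt1 to the endothelial claudin Cldn5 (0.976), itself a marker used for the class, and Tek to Srgap1 (0.987), Lpar4 and Ramp2, a co-receptor for adrenomedullin. Pdgfra was closest to Lrrn4cl (0.992) and Pdgfrb to Enpep (0.982), an aminopeptidase of pericytes. Of the ligands, Pdgfa was closest to Rasal2 (0.935) and Pawr (0.933), and Angpt2 also had Pawr among its 3 nearest genes (0.917). Vegfa had the lowest value for a nearest gene, with Bhlhe40 (0.839), a transcription factor responsive to hypoxia, as the nearest, followed by Rap2a (0.802) and Dcun1d3 (0.785). Pdgfb was nearest to Plekhg5 (0.884) and Angpt1 to Raver2 (0.887).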

How the data were processed

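Single-cell RNA of mouse left ventricles was captured with 10x Genomics 3′ chemistry. The authors deposited 1 filtered matrix of UMI counts per condition, aligned to mm10, and the matrix headers name Cell Ranger 3.1.0. The labels of 4 samples per condition could not be tied to cells, so each matrix was 1 library and no test between conditions was run. No per-sample columns (0) were set aside.

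Barcodes with at least 200 genes and at most 30% mitochondrial UMIs were kept, with no upper limit on genes, since the limit of 2500 used by the study would remove 14.1% of sham and 40.9% of IR cells. The depth was 58653308 UMIs in sham and 75033226 in IR. A cell took the class with the largest share of markers detected, if at least 3 were detected and the next class reached at most 0.7 of that share. The value of 0.7 was set after class counts were seen, and 515 sham and 761 IR cells lay near it. Of 160 markers in 15 lists, 156 were found. No doublet caller was run, and cells mixed between classes were left out of the levels. Macrophage/monocyte cells were split by which of the resident-side and CCR2-side lists had more UMIs, and fibroblasts were called adventitial with at least 2 of the adventitial markers, which holds for most of them and depends on depth. UMIs were summed per class and scaled to CPM with exact Poisson intervals, and log2 ratios of IR to sham have exact conditional binomial intervals, at 95%. PCR and capture make these intervals cover counting error only. Shares of cells with a UMI were compared after thinning each cell to 1000 UMIs, leaving out shallower cells. The background is the share of genes with at least 20 UMIs in the class that differed by 2-fold.

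Named genes were all 10 members, the fixed pathway lists and the 3 nearest genes by Pearson r of log2(CPM + 10) over class sums, among genes with at least 100 UMIs. The members and lists were chosen with earlier results of these data known. Clusters for an alternative were made with scanpy 1.11.5 and leidenalg 0.10.2 at resolution 0.8, without the members. Python 3.11.15, numpy 2.4.6, scipy 1.17.1 and pandas 2.3.3 were used. The ratio and interval code was tested on simulated data. Promoter sequences came from RefSeq tables of GRCm38.p6 and gene positions from the GRCm38 annotation.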

Additional observations from a re-analysis of the deposited data

Results flagged for a closer look

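For 3 members the ratio of IR to sham was at least 2-fold higher in some classes and at least 2-fold lower in others, with counting intervals clear of 0. These log2 ratios rest on 1 library per condition, and the differences between classes were not tested. For Vegfa the fibroblast ratio was 0.45, and the values were 4.71 in macrophage/monocyte cells, 1.36 in neutrophils, 1.62 in B cells, 1.37 in NK cells and -1.38 in endothelial cells. For Flt1, at -0.19 in endothelial cells, the ratios were 2.01 in fibroblasts, -1.01 in macrophage/monocyte cells, -2.56 in neutrophils and -2.98 in B cells, the last with 22 of 34 sham UMIs in 1 cell. For Pdgfrb, at 0.37 in pericytes, smooth muscle cells had 1.01 and endothelial cells -1.50, the latter from 28 sham and 6 IR UMIs.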

How the results depend on the processing

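No paired analysis was possible because each condition is 1 matrix whose cells carry no replicate number. Of 126 recomputed log2 ratios, 103 stayed within the counting interval of the reported value, 20 moved and 3 changed sign. With at least 5 markers per cell all 21 stayed. With the limit of 2500 genes 8 moved and 2 changed sign. Flt1 in fibroblasts was 3.11, Angpt2 in endothelial cells 2.45, Angpt1 in fibroblasts -1.74, Pdgfb in macrophage/monocyte cells 0.47, Vegfa in fibroblasts 1.26, Flt1 in endothelial cells -0.48, Kdr there -0.35, Pdgfa in smooth muscle cells 2.19, Pdgfra in fibroblasts -0.00138 and Pdgfrb in fibroblasts -0.0842. With classes from clusters 7 moved, among them Kdr in endothelial cells (-0.34), Pdgfrb in pericytes (0.55), Vegfa in macrophage/monocyte cells (2.13) and Pdgfa in endothelial cells (1.37). Relative to the median gene, Pdgfra in fibroblasts was 0.37. When each cell counted equally, Tek in fibroblasts was 0.000153 and Pdgfrb in smooth muscle cells 0.59. With the next class limited to 0.5 of the best score, an alternative chosen after seeing the data, Vegfa in macrophage/monocyte cells was 4.09. The values without the highest cell of each library were also chosen after seeing the data. The cause of these shifts was not tested. Classes from clusters leave out the cluster with both macrophage and neutrophil markers, and its part in the shifts was not tested either.

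Counting genes with at least 1 UMI in each library gave 1296 higher and 1469 lower in endothelial cells (615 and 774 with at least 20 UMIs), 1625 and 1189 in pericytes (680 and 760), 1564 and 1248 in smooth muscle cells (672 and 656), 808 and 3550 in neutrophils (1218 and 2232), 1102 and 1116 in B cells (450 and 520), 1184 and 913 in T cells (534 and 286) and 2321 and 903 in NK cells (815 and 556). The counts of 65 smooth muscle, 102 endothelial and 105 pericyte cells in IR limit what can be said of the vessel wall, and sham and IR cannot be told apart from the library that carried them.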

Other observations

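Cells left as mixed between macrophage/monocyte and neutrophil had 51.8 CPM Flt1 in sham (34 UMIs, 57 cells) and 7.16 CPM in IR (61 UMIs, 646 cells), and 18.3 and 9.04 CPM Pdgfb. Their Pdgfa levels were 3.05 and 9.16 CPM. On the resident side of the macrophage/monocyte class, Adamts1, a metalloproteinase of the matrix, was 3.41 CPM in sham and 22.1 in IR, against 2.28 and 2.63 on the CCR2 side, and Rcan1 was 26.4 and 86.6 CPM against 20.1 and 32.1. Figf, the gene of VEGF-D, was a fibroblast gene with 10.99 and 7.63 CPM, and in fibroblasts outside the adventitial group 11.9 and 2.47 CPM, the latter from 5 UMIs. Vegfc in the same fibroblasts was 20.9 and 64.3 CPM.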
